A study of Mus musculus with 3 samples.

Results

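The miR-192, miR-194 and miR-215 clusters were examined in small RNA libraries of mouse liver through all mature arms whose names start with mmu-miR-192-, mmu-miR-194- or mmu-miR-215-. This name rule found 7 of the 1908 mature microRNAs listed, and 6 of the 7 had reads. The livers came from male C57BL/6J mice aged 8 to 10 weeks, an inbred strain, with no transgene or deletion stated. All groups underwent anesthesia and a midline laparotomy after fasting. The Sham group had no occlusion and was kept for 90 min. In the warm ischemia (WI) group the vessels and bile duct of the left and median lobes were clamped for 90 min. In the ischemia-reperfusion (IR) group the same clamping for 90 min was followed by 120 min of restored flow, so IR livers were taken later after surgery than Sham and WI livers. Each group was 1 library, and although 6 mice were operated per group, whether their RNA was pooled was not stated. No difference below therefore has a replicate check, and every p-value compares libraries and not conditions. Intervals and standard errors (SE) cover counting error only and leave out the spread between mice. They treat reads as independent, which reads copied by PCR are not, so they can be too narrow.

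MicroRNA genes are transcribed as hairpins that are cut into a 5p and a 3p arm, and usually one arm is loaded into the silencing complex while its partner is degraded. A loaded microRNA finds messenger RNAs mainly through its seed, bases 2 to 8. miR-192 and miR-194 are abundant in liver, gut and kidney epithelium, and miR-192, miR-194 and miR-215 are also known as p53-responsive microRNAs that restrain the cell cycle. Mice carry the family as paired paralogs, with a miR-194 gene beside miR-215 and another beside miR-192.

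The mature sequences show how the members are related and which reads can be assigned to a cluster. All 7 names were found in the RefSeq microRNA table (GRCm38.p6). Each sequence is written 5′ to 3′ with its seed in capitals.
mmu-miR-192-5p: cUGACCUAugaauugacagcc
mmu-miR-215-5p: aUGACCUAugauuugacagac
mmu-miR-194-5p: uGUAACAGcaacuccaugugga
mmu-miR-192-3p: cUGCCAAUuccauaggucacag
mmu-miR-215-3p: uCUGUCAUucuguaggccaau
mmu-miR-194-1-3p: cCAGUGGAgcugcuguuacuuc
mmu-miR-194-2-3p: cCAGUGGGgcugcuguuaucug

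mmu-miR-192-5p and mmu-miR-215-5p share the seed UGACCUA, and no other name among the 1679 in the table carries it. Counted from 1 at the 5′ end, they differ at 3 of 21 positions, C1A, A12U and C20A, where the base of miR-192-5p is given first. Their 3p partners carry different seeds, and mmu-miR-192-3p and mmu-miR-215-3p match at 10 of the 21 positions compared. mmu-miR-194-5p is encoded in both miR-194 genes with the same sequence, so its reads cannot be divided between the clusters. The miR-194 3p arms can be told apart, because they differ at 4 of 22 positions (G8A, U19C, C20U and G22C, with miR-194-2-3p first), one of them in the seed. By sequence, mmu-miR-192-5p, mmu-miR-192-3p and mmu-miR-194-2-3p thus mark chromosome 19, and mmu-miR-215-5p, mmu-miR-215-3p and mmu-miR-194-1-3p mark chromosome 1. A read without positions 1 and 20 differs between mmu-miR-192-5p and mmu-miR-215-5p at position 12 alone. The alignment allowed 1 mismatch, so some reads of mmu-miR-192-5p may be counted as mmu-miR-215-5p, and their number was not measured.

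Positions were taken from the NCBIM37 (mm9) annotation, whose genome holds the same 4 hairpin sequences as RefSeq. On chromosome 1, Mir194-1 (chr1:187137198-187137264) and Mir215 (chr1:187137460-187137571) lie 195 bases apart on the plus strand, antisense within an intron of Iars2, which encodes mitochondrial isoleucyl-tRNA synthetase. On chromosome 19, Mir194-2 (chr19:6264643-6264728) and Mir192 (chr19:6264844-6264932) lie 115 bases apart on the plus strand, outside other annotated genes and 2308 bases from Atg2a at the nearest. The mature arm of mmu-miR-215-5p covers chr1:187137489-187137509, and that of mmu-miR-192-5p covers chr19:6264857-6264877. The miR-194 hairpins are shown because the same 5p arm lies in both, with both mature arms in capitals.
Mir194-1: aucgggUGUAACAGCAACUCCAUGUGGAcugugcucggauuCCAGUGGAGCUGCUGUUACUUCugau
Mir194-2: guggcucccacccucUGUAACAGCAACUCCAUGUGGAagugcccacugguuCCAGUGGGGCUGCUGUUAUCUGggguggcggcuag

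**Figure D1:**
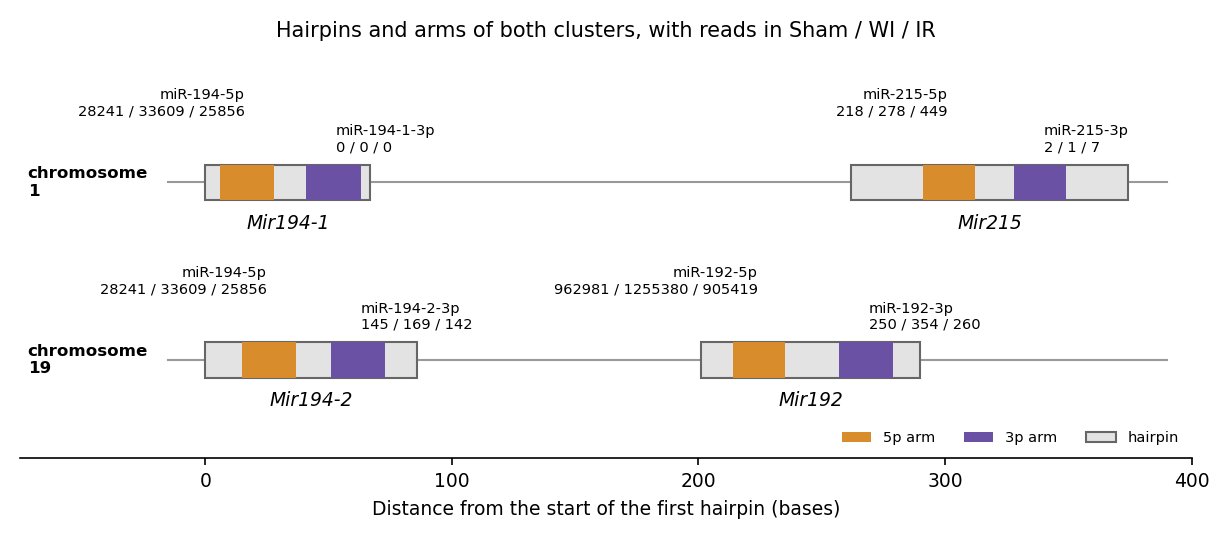
Map of both clusters to scale, with the distance in bases from the start of the first hairpin on the x axis, hairpins as grey boxes, and 5p and 3p arms in color. Numbers give the reads of each name in Sham / WI / IR, and the undivided reads of miR-194-5p are written at both of its hairpins. Reads of the arms found on chromosome 1 alone are at most 449, while miR-192-5p on chromosome 19 has at least 905419.

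MicroRNA reads numbered 3844133 for Sham, 5064014 for WI and 3784539 for IR. According to the paper, a smaller share of the clean small RNA reads aligned to the genome in IR than in Sham or WI. Levels are given as normalised counts per scaled 1000000 reads (CPM) after trimmed mean of M-values (TMM) scaling. The hepatocyte microRNA miR-122-5p was abundant in all 3 libraries, at rank 12, 12 and 11 with 15960, 18999 and 15364 CPM. The smallest number of reads treated as detectable, 3 reads, corresponds to 0.758, 0.617 and 0.785 CPM in the Sham, WI and IR livers.

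The 7 members together took 25.8% of the microRNA reads for Sham (95% Wilson interval 25.8 to 25.8), 25.5% for WI (25.4 to 25.5) and 24.6% for IR (24.6 to 24.7). Nearly all of these reads came from the 5p arms of chromosome 19 or of undivided origin. Of the members' reads in the Sham, WI and IR livers, mmu-miR-192-5p accounted for 97.1%, 97.3% and 97.1%, and mmu-miR-194-5p for 2.85%, 2.61% and 2.77%. The remaining members together held 615, 802 and 858 reads in the Sham, WI and IR livers.

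mmu-miR-192-5p, the major arm, had 962981, 1255380 and 905419 reads in the Sham, WI and IR livers, or 243175, 258042 and 236770 CPM. By reads, it held the first rank in each library. The libraries were made by ligating adapters, and how evenly different sequences were captured was not measured. Ranks and ratios between names therefore compare reads, not molecules in the liver. Its passenger arm mmu-miR-192-3p had 250, 354 and 260 reads, or 63.1, 72.8 and 68.0 CPM. The Poisson intervals of these 3 levels, 55.5 to 71.5, 65.4 to 80.8 and 60.0 to 76.8 CPM, overlap each other.

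mmu-miR-194-5p had 28241, 33609 and 25856 reads in the Sham, WI and IR livers, or 7132, 6908 and 6761 CPM, which placed it at rank 20, 22 and 22. mmu-miR-194-2-3p, its partner on chromosome 19, had 145, 169 and 142 reads, or 36.6, 34.7 and 37.1 CPM. The levels of this 3p arm lie within each other's Poisson intervals, the widest of which runs from 31.3 to 43.8 CPM. mmu-miR-194-1-3p, the 3p arm of the chromosome 1 copy, had 0 reads in all 3 libraries. Against 456 reads of mmu-miR-194-2-3p in all, and with 3 reads as the limit, this allows Mir194-1 up to 0.658% of the miR-194 3p reads. Within single libraries the limit is 2.07% for Sham, 1.78% for WI and 2.11% for IR.

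mmu-miR-215-5p, the paralog of miR-192-5p, had 218, 278 and 449 reads under its name in the Sham, WI and IR livers, which may include reads of miR-192-5p. Its level was 55.1 CPM for Sham (95% Poisson interval 48.0 to 62.9), 57.1 for WI (50.6 to 64.3) and 117 for IR (107 to 129). The Sham and WI intervals overlap, and the IR interval lies above both. Its rank moved from 156 in Sham and 151 in WI to 124 in IR. The partner mmu-miR-215-3p had 2, 1 and 7 reads in the Sham, WI and IR livers, which is below the 3 reads treated as detectable in Sham and WI.

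**Figure D2:**
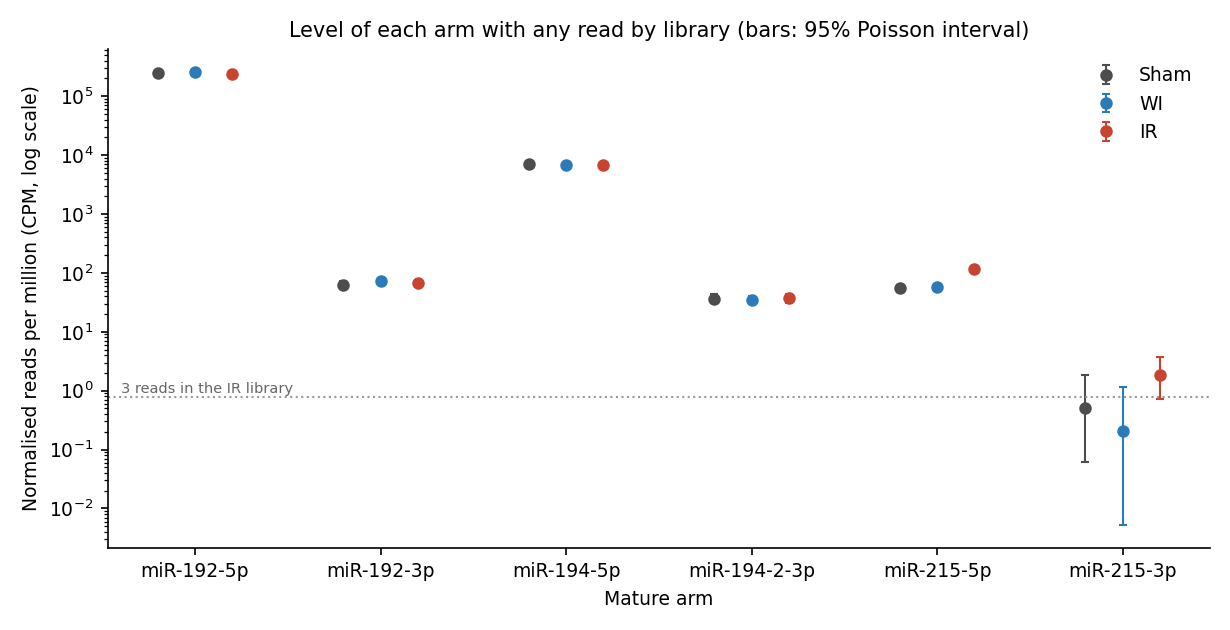
Level in each library of the 6 arms with any read, in CPM on a log scale, where bars are 95% Poisson intervals and the dotted line is the level of 3 reads in IR. miR-215-5p stands at 55.1 and 57.1 CPM in Sham and WI and at 117 in IR, and the other arms with over 100 reads keep nearly the same height.

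The effect of ischemia alone was examined by comparing WI with Sham. None of the 6 tested members was called, that is, none passed both a fold change above 1.5 and an unadjusted Fisher's exact p under 0.01. Over all microRNAs 15 of 782 were called, or 1.92%, of which 11 were higher and 4 lower with TMM scaling but 7 higher and 10 lower with library totals. Without the fold threshold, 2 members passed the p threshold, mmu-miR-192-5p and mmu-miR-194-5p, whose large counts make small shifts exceed counting error. The log2 fold change of mmu-miR-192-5p was 0.09 (SE 0.0020) with TMM scaling but -0.02 with library totals and with totals that leave out the members. That of mmu-miR-194-5p was -0.05 (SE 0.012, Fisher's exact p = 7.78e-05) with TMM and 0.11 with genome-aligned totals.

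With TMM scaling, the other members with over 100 reads did not differ between WI and Sham beyond counting error. mmu-miR-215-5p had a log2 fold change of 0.05 (SE 0.13, Fisher's exact p = 0.685). Its ratio of levels, 1.04, has a 95% interval from 0.866 to 1.25. For mmu-miR-192-3p the log2 fold change came to 0.20 (SE 0.12, Fisher's exact p = 0.0859), and for mmu-miR-194-2-3p it was -0.08 (SE 0.16, Fisher's exact p = 0.650). With genome-aligned totals, which move the median of all microRNAs from 0.05 to 0.20, mmu-miR-192-3p had 0.36 (Fisher's exact p = 0.00255), below the fold threshold. The 3p arm of miR-215, with 3 reads over both libraries, allows no comparison.

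The reperfusion period was examined by comparing IR with WI, and ischemia with reperfusion by comparing IR with Sham. Both comparisons share the IR library. mmu-miR-215-5p rose in IR in both comparisons, and it was the only member called in either. From WI to IR its log2 fold change reached 1.04 (SE 0.11, Fisher's exact p = 8.82e-22, adjusted over all microRNAs 1.45e-20), a ratio of 2.05 with a 95% interval from 1.77 to 2.39. Relative to Sham it reached 1.09 (SE 0.12, Fisher's exact p = 2.71e-21, adjusted 5.24e-20), a ratio of 2.13 with an interval from 1.81 to 2.52. The direction was the same with all 5 other scalings, and the log2 values over all 15 alternatives ran from 0.71 to 1.11 against WI and from 0.92 to 1.11 against Sham. In bulk liver RNA, a change in the number of cells of a type cannot be told apart from a change of RNA per cell. The spread between mice is unknown. Taking it as a coefficient of variation of 0.1, the call remained (edgeR exact p = 8.84e-06 against WI and 4.38e-06 against Sham), and with 0.2 it was lost (edgeR exact p = 0.0157 and 0.0115).

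The count of 1 in 6 members stands beside a background of other raised microRNAs. Of 789 microRNAs tested between IR and WI, 73 were called (9.25%) and 49 were called higher (6.21%). Between IR and Sham, 55 of 774 were called (7.11%), of which 44 were higher (5.68%). Where the pair of libraries held 100 or more reads of a microRNA, as for miR-215-5p, 32 of 243 were higher in IR than in WI (13.2%) and 32 of 237 were higher in IR than in Sham (13.5%). A rise in IR was therefore not particular to miR-215-5p.

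The abundant member mmu-miR-192-5p had a log2 fold change of -0.12 (SE 0.0020) in IR versus WI and -0.04 (SE 0.0021) in IR versus Sham, both below the fold threshold. For mmu-miR-194-5p the value was -0.08 (SE 0.012, Fisher's exact p = 5.16e-10) against Sham. Against WI it was -0.03 (SE 0.012, Fisher's exact p = 0.00913), which turned to 0.04 with library totals and 0.03 with totals that leave out the members. With genome-aligned totals, where the median of all microRNAs in IR versus WI moves from -0.01 to -0.33, mmu-miR-194-5p had -0.36, mmu-miR-192-5p -0.45 and mmu-miR-192-3p -0.42 (Fisher's exact p = 0.000324 for the last), and none passed the fold threshold. With TMM scaling both minor arms of chromosome 19 stayed within counting error, since mmu-miR-192-3p had 0.11 (SE 0.13, Fisher's exact p = 0.425) and mmu-miR-194-2-3p had 0.02 (SE 0.17, Fisher's exact p = 0.906) in IR versus Sham. Against WI these arms had -0.10 (SE 0.12) and 0.10 (SE 0.16).

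mmu-miR-215-3p had 7 reads in IR against 1 in WI and 2 in Sham. The ratio of its levels was 8.91 against WI with a 95% interval from 1.14 to 401 (Fisher's exact p = 0.0254) and 3.62 against Sham with an interval from 0.690 to 35.8 (Fisher's exact p = 0.104). Neither was called. Its counts were higher in IR, as those of its 5p partner were, but the intervals are too wide for the arms to be compared in size.

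The median log2 fold change of the 6 tested members was 0.0039 in WI versus Sham, 0.03 in IR versus WI and 0.06 in IR versus Sham. Over all tested microRNAs it was 0.05, -0.01 and 0.04.

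**Figure D3:**
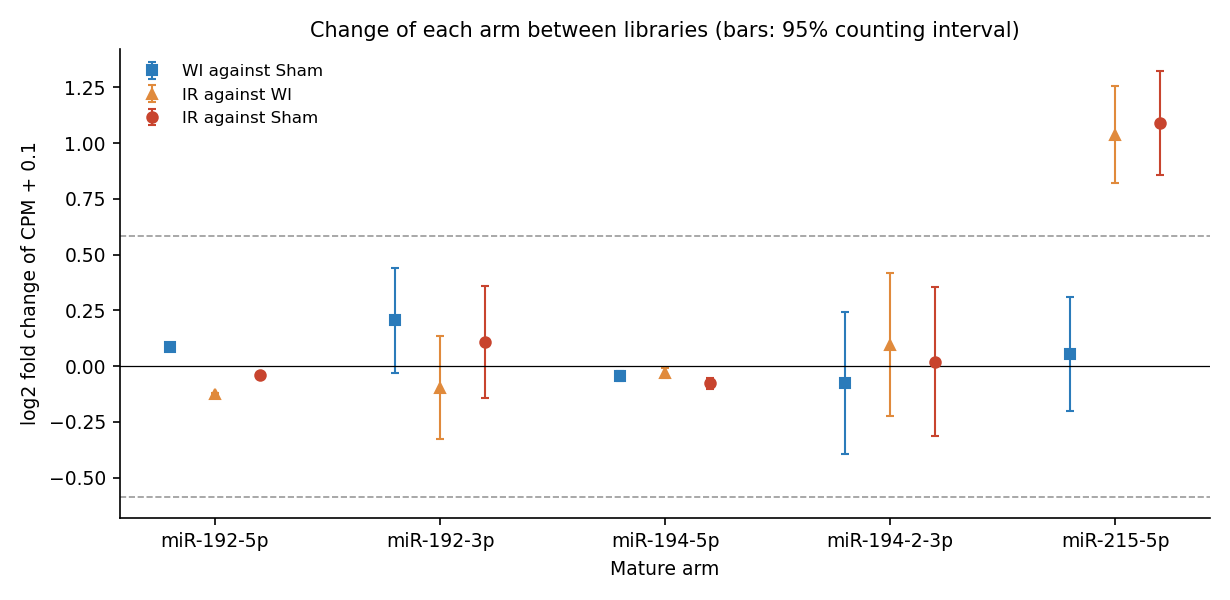
Log2 fold change of CPM + 0.1 for the 5 members with at least 100 reads in each library, where bars are 95% counting intervals and dashed lines mark a fold change of 1.5. Only miR-215-5p lies beyond the dashed line, at 1.04 for IR versus WI and 1.09 for IR versus Sham, while every other point lies between the lines.

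**Figure D4:**
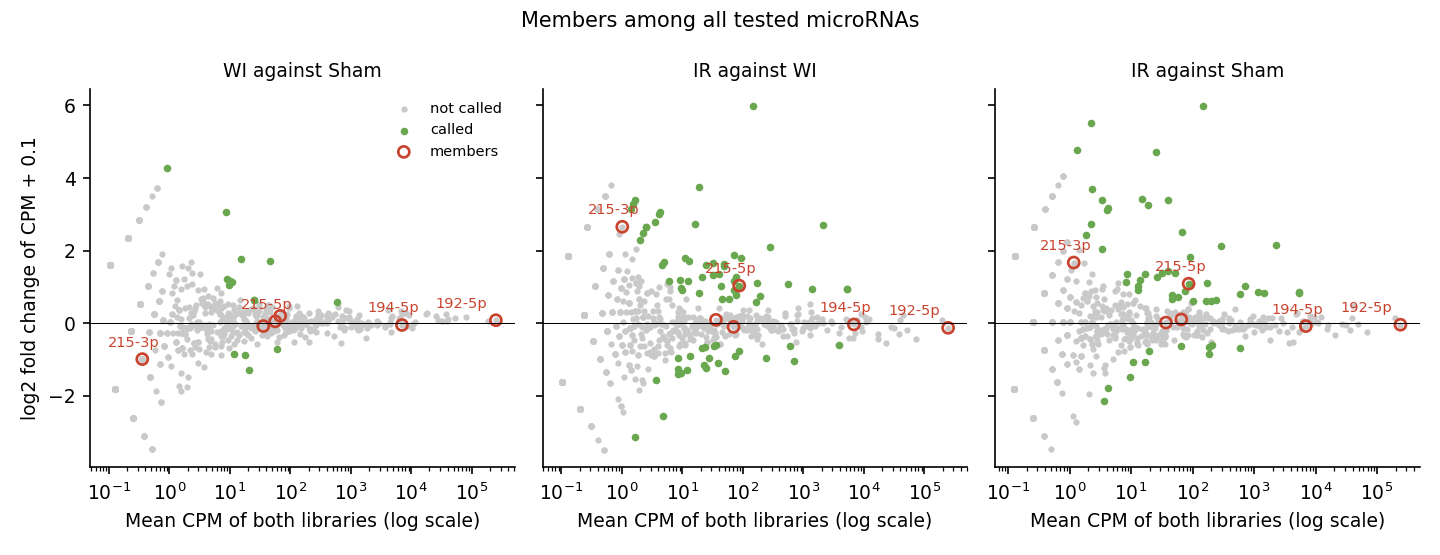
Log2 fold change against mean level for all tested microRNAs in each comparison, with called microRNAs in green and members circled in red. The most abundant circle, miR-192-5p, stays near 0 in each panel, and miR-215-5p moves from 0.05 in WI versus Sham into the called microRNAs in both comparisons with IR.

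Ratios between members within a library do not depend on the scaling between libraries, so they were used to compare the paralogs directly. For each 10000 reads of mmu-miR-192-5p there were 2.26 reads of mmu-miR-215-5p for Sham (95% exact interval 1.97 to 2.59), 2.21 for WI (1.96 to 2.49) and 4.96 for IR (4.51 to 5.44). The IR interval lies above those of Sham and WI, which overlap. The log2 change of this ratio was 1.16 (SE 0.11, Fisher's exact p = 6.29e-27) for IR versus WI and 1.13 (SE 0.12, Fisher's exact p = 1.10e-22) for IR versus Sham. WI versus Sham gave -0.03 (SE 0.13, Fisher's exact p = 0.821).

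With every other member that has over 100 reads as the reference, the ratio was also higher in IR. Against mmu-miR-194-5p, the log2 change from Sham to IR was 1.17 (SE 0.12). Against mmu-miR-192-3p it was 0.99 (SE 0.17), and against mmu-miR-194-2-3p it was 1.07 (SE 0.21). Of 27 such ratio tests, 8 passed both thresholds, with adjusted Fisher's exact p between 8.49e-26 and 5.90e-06. They are the 4 references in both comparisons with IR. All 8 use the same miR-215-5p reads, and none of the references passed the fold threshold. They therefore restate the rise of miR-215-5p and are not separate results. The ratio of mmu-miR-215-5p to mmu-miR-192-3p was 0.872 for Sham (0.724 to 1.05), 0.785 for WI (0.669 to 0.921) and 1.73 for IR (1.48 to 2.02). The order of these members thus turned, with miR-215-5p below miR-192-3p in WI, not distinguishable from it in Sham, and above it in IR.

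**Figure D5:**
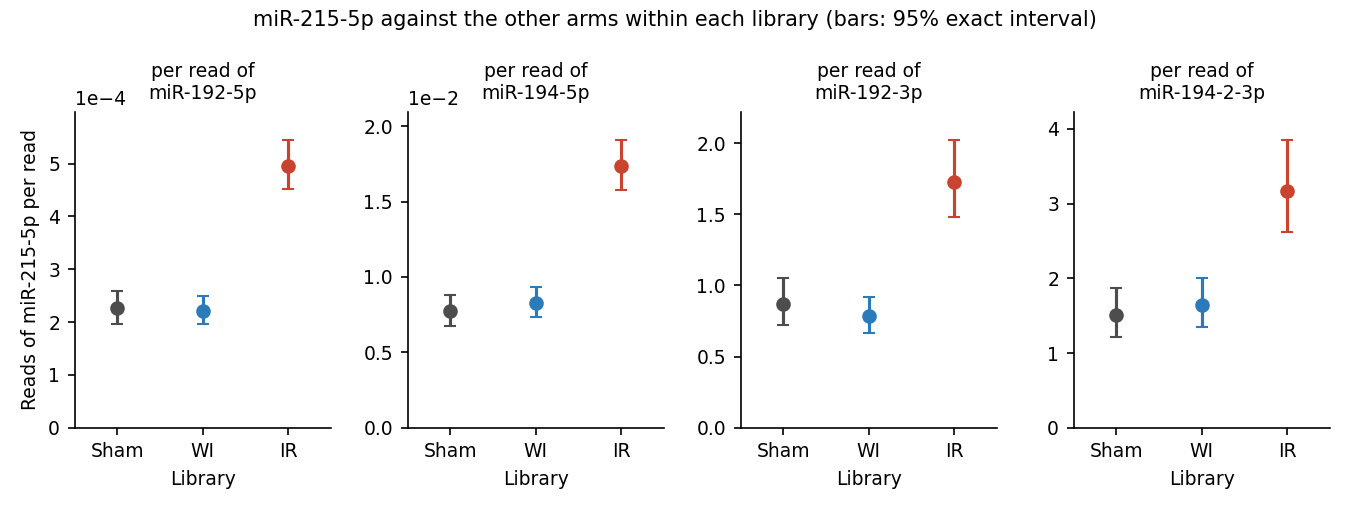
Reads of miR-215-5p per read of each of the 4 other members with over 100 reads, in each library, where bars are 95% exact intervals and each axis starts at 0. In each panel the IR point lies above the intervals of Sham and WI, for example at 1.73 against 0.872 and 0.785 per read of miR-192-3p.

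The proportions among the other members changed less in size. For each read of mmu-miR-194-5p there were 34.1 reads of mmu-miR-192-5p for Sham (33.7 to 34.5), 37.4 for WI (37.0 to 37.8) and 35.0 for IR (34.6 to 35.5). The WI value lies above the others, and the log2 change of 0.13 for WI versus Sham (SE 0.012, Fisher's exact p = 1.05e-28) exceeded counting error but not the fold threshold. mmu-miR-192-3p and mmu-miR-194-2-3p, the minor arms, kept a ratio of 1.72 for Sham (1.40 to 2.13), 2.09 for WI (1.74 to 2.53) and 1.83 for IR (1.49 to 2.26).

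Arm usage was then compared. There were 3852 reads of mmu-miR-192-5p for each read of mmu-miR-192-3p for Sham (3403 to 4378), 3546 for WI (3195 to 3947) and 3482 for IR (3084 to 3948). There were 195 reads of mmu-miR-194-5p for each read of mmu-miR-194-2-3p for Sham (165 to 231), 199 for WI (171 to 233) and 182 for IR (154 to 216). Neither ratio changed beyond counting error, with log2 changes from Sham to IR of -0.15 (SE 0.13) and -0.10 (SE 0.17). Among hairpins named by both arms and with at least 10 reads of each arm, the 5p to 3p ratio was called for 5 of 112 in WI versus Sham (4.46%), 7 of 111 in IR versus WI (6.31%) and 4 of 111 in IR versus Sham (3.6%), and that of miR-192 was not among them. For miR-215 the ratio was 109, 278 and 64.1 in the Sham, WI and IR livers, with intervals of 29.8 to 906, 49.5 to 11019 and 30.9 to 160 that overlap because of the few 3p reads.

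By cluster, the arms specific to chromosome 1 had 220, 279 and 456 reads in the Sham, WI and IR livers, and those specific to chromosome 19 had 963376, 1255903 and 905821. The share of chromosome 1 was 0.0228% for Sham (95% Wilson interval 0.0200 to 0.0261), 0.0222% for WI (0.0198 to 0.0250) and 0.0503% for IR (0.0459 to 0.0551). This difference rests on miR-215 alone, as the miR-194 3p arm of chromosome 1 had no read in any library.

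The seed shared by miR-192-5p and miR-215-5p was also followed as a sum. mmu-miR-215-5p supplied 0.0226% of the reads with this seed for Sham (95% Wilson interval 0.0198 to 0.0258), 0.0221% for WI (0.0197 to 0.0249) and 0.0496% for IR (0.0452 to 0.0544). This share restates the ratio of mmu-miR-215-5p to mmu-miR-192-5p given above and is not a separate result. From Sham to IR mmu-miR-215-5p gained 62.4 CPM, while the change of mmu-miR-192-5p was -6405 CPM with TMM scaling. The sum of both had a log2 change of -0.04 from Sham to IR (SE 0.0021) and -0.12 from WI to IR (SE 0.0020), the same to 2 decimals as for mmu-miR-192-5p alone.

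Lists of microRNAs known from other cell types and from the p53 response were read beside the rise of miR-215-5p. As background to every list, 5.68% of all tested microRNAs were called higher in IR versus Sham and 6.21% in IR versus WI. Among those with 100 or more reads over both libraries, these shares were 13.5% and 13.2%. The share called lower in IR versus WI was 3.04%, and that called higher in WI versus Sham was 1.41%. Of 5 erythroid microRNAs (miR-144, miR-451a and miR-486 arms), 4 were called higher in IR versus Sham and 3 in IR versus WI, and none was at 0 in all libraries. Their summed level was 5062, 4786 and 9028 CPM in the Sham, WI and IR livers, and the most abundant, miR-486-5p, had 3809, 3585 and 6863 CPM. The median log2 fold change of the erythroid list was 0.63 in IR versus Sham and 0.68 in IR versus WI, beside 0.04 and -0.01 for all microRNAs. The part of blood cells in the miR-215-5p result was not tested.

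Of 6 leukocyte microRNAs (miR-223, miR-142 and miR-150 arms), miR-223-3p, a myeloid microRNA, was called higher in both comparisons with IR and miR-223-5p was called lower in IR versus WI. The summed level of the leukocyte list was 3085, 3050 and 2798 CPM in the Sham, WI and IR livers, of which miR-142-5p supplied 2735, 2672 and 2342. The median log2 fold change of this list was -0.27 in both comparisons with IR. Of 12 epithelial microRNAs (miR-200 family and miR-375), 3 were at 0 in all libraries and none was called in IR versus Sham. Between IR and WI, miR-200c-3p was called higher and miR-375-3p lower. Their sum was 503, 499 and 505 CPM in the Sham, WI and IR livers, of which the bile duct and gut microRNA miR-200b-3p supplied 252, 226 and 257. The epithelial median was -0.0029 in IR versus Sham and -0.10 in IR versus WI. The medians of all microRNAs in these comparisons were 0.04 and -0.01. The part of leukocytes and of other epithelium was not tested.

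Of 6 p53-linked microRNAs of the miR-34 family, miR-34c-5p was called higher in IR versus Sham, with 20, 44 and 43 reads in the Sham, WI and IR livers. miR-34a-5p, the most abundant of them, had 135, 214 and 112 reads and was called lower in IR versus WI, with a log2 fold change of -0.585 whose size equals the fold threshold to 3 decimals. The summed level of the 6 was 39.6, 53.9 and 42.4 CPM in the Sham, WI and IR livers, most of it miR-34a-5p. The median log2 fold change of the 6 between IR and Sham was 0.98, beside 0.04 for all microRNAs, and 4 of them had at most 3 reads in any library. The part of a p53 response in the miR-215-5p result was not tested.

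Among the remaining lists, neither of the 2 hepatocyte arms of miR-122 nor the 2 endothelial arms of miR-126a was called in any comparison. The miR-122 arms summed to 17055, 20121 and 16431 CPM in the Sham, WI and IR livers, and the miR-126a arms, most of them miR-126a-5p, to 19267, 22783 and 17568. Of 9 muscle microRNAs, 4 were at 0 in all libraries, and only miR-133a-3p was called. It was called higher in all 3 comparisons, with 27, 115 and 280 reads in the Sham, WI and IR livers.

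The microRNAs whose changes were most like those of mmu-miR-215-5p were found by the distance between their pairs of log2 fold changes (WI versus Sham and IR versus WI), over 3 libraries and 278 other microRNAs with at least 100 reads. The nearest was miR-223-3p at a distance of 0.108, with log2 fold changes of -0.02 and 1.12. Next came miR-486-5p (0.173), miR-3107-5p (0.175), miR-451a (0.194) and miR-714 (0.228). miR-3107-5p and miR-486-5p had counts that were nearly equal in each library, with 26113 and 26245 reads in IR, so these names may not be independent. With 3 libraries, such likeness is a description.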

How the data were processed

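Small RNA was sequenced from mouse liver in 3 libraries (Sham, WI and IR), grouped by sample title. Raw reads per mature microRNA name were deposited as whole-number counts. The authors trimmed adaptors and poor reads, kept lengths of 15 to 30 nt, aligned with Bowtie 0.12.7 with 1 mismatch and at most 5 positions, classified alignments with HTSeq and counted arms with miRDeep2. The methods name mm9 for small RNA and the submitters' processing notes name mm10. Reads that fit near-identical arms may be counted under either name or under both. Reads counted under both names would enter the totals and the background counts more than once.

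Counts were scaled with TMM factors (edgeR 4.0.16, R 4.3.3) of 1.03 (Sham), 0.961 (WI) and 1.01 (IR). Log2 fold changes used CPM + 0.1, which understates changes of low arms, and their SE came from the reads only. A two-sided Fisher's exact test (scipy 1.17.1) set the reads of each name with 1 or more reads against the scaled totals, with the thresholds of the study's methods (fold change above 1.5, unadjusted p under 0.01). The paper reports more differentially expressed microRNAs for WI and for IR against Sham than were called here. The background counts are therefore not the study's own. Benjamini-Hochberg values were taken over all tested microRNAs, or over the 27 ratio tests. Ratios within libraries were tested on the 4 counts involved. Calling was tested on simulated counts with known changes. Without replicates, edgeR's quasi-likelihood test could not be fitted.

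Every member was named, with the list entries that were most abundant or called in the direction of a called member, and the 5 nearest patterns. miR-375-3p and miR-223-5p, called lower, were named after their values were seen. The lists name miR-126, which the files hold as miR-126a. The members and lists were chosen with earlier results of these data known. Alternatives covered the scaling, pseudocount, read minimum, thresholds, assumed variation and reference arm.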

Additional observations from a re-analysis of the deposited data

How the results depend on the processing

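No paired analysis was possible because each group has 1 library, so no replicate could be left out and no replicate block could be fitted. Of 267 recomputed member values under 15 alternatives, 246 kept direction and call, while 4 calls were lost, 1 was added and 16 signs turned. Alternatives that change only the thresholds, the read minimum or the assumed variation leave each log2 fold change as it is. No sign could turn under them, so the number kept is partly fixed in advance. None of the sign changes concerned a called value.

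The number of members called in the 3 comparisons (0, 1 and 1) changed with few alternatives. At p under 0.05 it was 2 in IR versus WI, because miR-215-3p (log2 fold change 2.66) was added. With edgeR's exact test and an assumed coefficient of variation of 0.2 or 0.4 it was 0 in IR versus WI and 0 in IR versus Sham. The p of miR-215-5p at 0.4 was 0.222 against WI and 0.20 against Sham (edgeR exact test).

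Over all microRNAs, the calls in WI versus Sham (15 as reported) became 25 with genome-aligned totals, 33 at p under 0.05, 9 at a fold change above 2, and 4 or 1 at a coefficient of variation of 0.2 or 0.4. The split of higher to lower was 11 to 4 with TMM, 7 to 10 with library totals and without the members, 8 to 9 without the 10 most abundant, and 23 to 2 with genome-aligned totals. Those in IR versus WI (73) became 111 with genome-aligned totals, split into 38 higher and 73 lower (TMM: 49 and 24), and 33 or 6 at the assumed variations. Those in IR versus Sham (55) became 35 at a fold change above 2 and 24 or 10 at the assumed variations, and genome-aligned totals split them into 35 higher and 28 lower (TMM: 44 and 11). Genome-aligned totals moved the median log2 fold change of all microRNAs to 0.20, -0.33 and -0.11 in the 3 comparisons.

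The sign changes came with another scaling. In WI versus Sham, miR-192-5p became -0.015 with library totals and -0.022 without the members, miR-215-5p became -0.047, -0.029 and -0.053 with library totals, without the 10 most abundant and without the members, and with genome-aligned totals miR-194-5p became 0.11 and miR-194-2-3p 0.080. In IR versus WI, miR-194-5p became 0.042 with library totals and 0.026 without the members, and miR-194-2-3p became -0.23 with genome-aligned totals. In IR versus Sham, miR-194-2-3p became -0.0060 (DESeq2 size factors), -0.0076 (library totals), -0.044 (without the 10 most abundant), -0.030 (without the members) and -0.15 (genome-aligned totals), and miR-192-3p became -0.061 with genome-aligned totals. The ratio of miR-215-5p to its reference in WI versus Sham was 0.10 with miR-194-5p in place of miR-192-5p (Fisher's exact p = 0.469). The libraries give no measure of variation between mice, and mmu-miR-215-3p and mmu-miR-194-1-3p are limited by their read numbers.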

Other observations

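Some further microRNAs share bases 2 to 7, but not the full seed, with a member. miR-7088-3p shares them with miR-192-5p and miR-215-5p, and it had 0, 1 and 1 reads in the Sham, WI and IR livers. miR-6926-5p and miR-7055-5p carry the full seed of miR-194-2-3p, and both had 0 reads in all 3 libraries. In IR, miR-215-5p (449 reads) lay between miR-142-3p (454) and miR-139-5p (436), and in Sham (218 reads) between miR-338-3p (226) and miR-339-5p (216).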
